A study of Mus musculus with 8 samples.

Results

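The genes described here encode the actin cytoskeleton and the focal adhesions of the cell: actins, filament crosslinkers, tropomyosins, calponins and transgelins, myosin II chains, adhesion plaque proteins, LIM domain adaptors and factors of filament turnover. They were chosen as a list of 46 symbols, and all 46 were found among the 23284 gene symbols of the count tables. The filter on low counts kept 40 of them, and 6 lay under it. RNA was sequenced from 4 Max knockout and 4 control libraries of mouse preSC cells, a culture model of precancerous neuroendocrine lung cells. Both groups share one background, namely cells from mixed 129/SvJ and C57BL/6 mice with the reporter Chga-GFP and the alleles Rb lox/lox, p53 lox/lox and p130 lox. The knockout group received a guide RNA against Max and the control group a control guide. The cells were selected with puromycin, expanded as polyclonal populations and given no further treatment, so a knockout library may hold cells with different edits. The comparison addresses how gene expression differs once MAX, the DNA-binding partner of the MYC proteins, has been targeted.

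Actin monomers assemble into filaments that are crosslinked, bundled and covered with tropomyosin, and myosin II pulls on these filaments to make tension. Focal adhesions link the filament ends to integrins and so to the matrix outside the cell. Many actin genes are transcribed by SRF, whose MRTF cofactors are held inactive by free actin monomers. Neuroendocrine cells use cortical actin in secretion and in attachment to their neighbours.

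The libraries held 13711278 to 19804949 reads counted in genes, and levels are given as CPM, the counts of a gene scaled to library size with TMM factors. Max itself was at 42.3, 42.3, 59.1 and 68.0 CPM in knockout libraries 1 to 4, whereas the controls were at 65.5, 70.2, 75.2 and 61.9 CPM. Knockout library 4 lay within the control range. The difference was -0.37 (SE 0.15; edgeR, adjusted p = 0.0955), and -0.52 without that library (adjusted p = 0.0228), a weak check because small edits need not lower a transcript. All 10 neuroendocrine markers passed the count filter. Of these markers Chgb (-0.37) and Scg2 (-0.57) fell, and Uchl1 rose (0.41) with overlapping groups, as control 3 was at 748 CPM (edgeR, adjusted p = 0.00183, 0.00729 and 0.0496). Calca, the calcitonin gene, had the largest difference of the list without passing the threshold (-1.08; adjusted p = 0.164): controls 1 and 2 were at 1979.9 and 1783 CPM, controls 3 and 4 at 399 and 467 CPM, and the knockout at 524 to 589 CPM. The summed level of the list was 7542 to 8127 CPM against 6873 to 8968 CPM. Controls 3 and 4 stood apart from controls 1 and 2: correlations of log2 CPM were as low as 0.973 among controls against 0.993 among knockout libraries, and the share of reads outside annotated features was 23.3% and 23.4% against 18.5% and 18.6%. The share in the knockout was 20.5% to 21.5%. Fits with either pair of controls were read for the members, Max, Srf and the genes named by smallest p from the further lists below. Where the choice of a pair changes a call among these genes, the values with either pair are given. Cell type markers and genes picked after values were seen had no such check. The labels do not say that libraries came from separate cultures, so a p-value here reflects how far the sequenced libraries scatter, part of which may be technical. In such bulk samples, fewer cells of a type and less RNA per cell cannot be told apart.

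In the Max knockout, 7 of the 40 tested genes rose and 8 fell, and the other 25 missed the threshold of an adjusted p under 0.05 (edgeR's quasi-likelihood test with Benjamini-Hochberg adjustment over all genes). The rises were those of the myosin heavy chain genes Myh7, Myh14 and Myh9, of Tagln2, Lima1, Lasp1 and Vasp. The falls were those of Mylk, Cnn2, Flna, Cfl2, Pdlim5, Gsn, Cnn3 and Zyx. Neither of the 2 tested cytoplasmic actin genes passed the threshold. The 15 called genes make up 37.5% of the tested members, where 23.1% of all 13358 tested genes were called. With only controls 1 and 2 the shares lay nearer to each other, at 19 of 40 members (47.5%) against 44.6% of all genes, and with only controls 3 and 4 they were 16 of 41 members (39.0%) against 20.7%. By direction in the fit on all libraries, 17.5% rose against 10.9% of all genes, and 20% fell against 12.2%. The median log2 fold change was -0.02 over the members and -0.0036 over all genes. Without regard to sign, the medians were close, at 0.186 over the members and 0.177 over all genes. For 15 of the 40 genes the knockout and control values did not overlap (37.5%, against 26.4% of all tested genes). Only Myh7 rose by 2-fold or more in the fit on all libraries, and Mylk and Cnn2 fell by as much. With only controls 3 and 4, neither fall reached 2-fold (-0.83 for Mylk and -0.69 for Cnn2 on the log2 scale). The share of all gene counts taken by the 46 genes was 1.013% ± 0.0277 in the knockout and 0.989% ± 0.0225 in the control (SD, n = 4 each), with overlapping ranges.

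**Figure D1:**
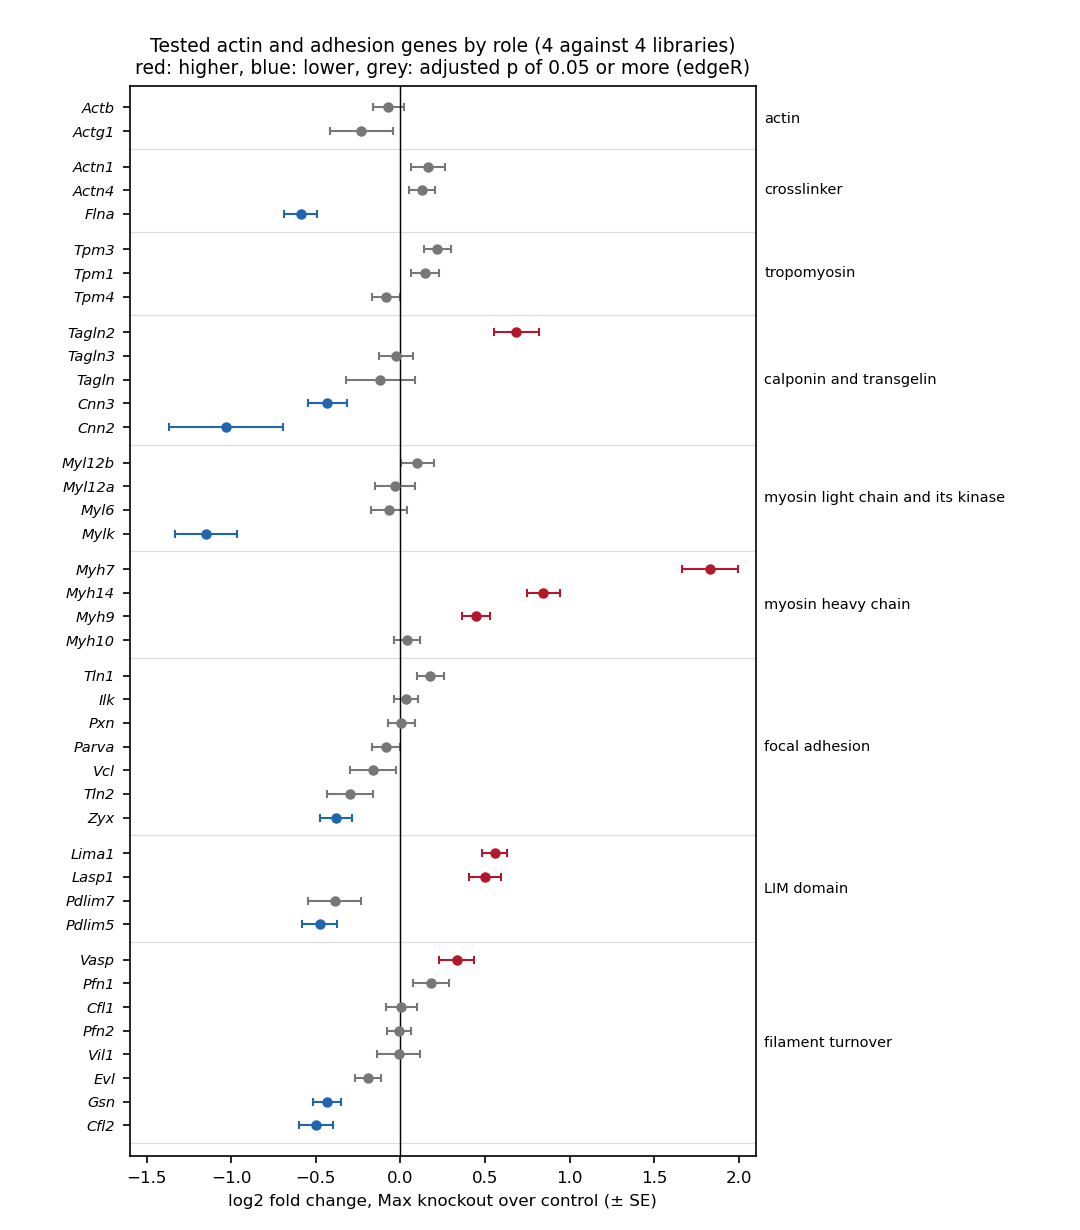
Log2 fold change of the 40 tested genes, Max knockout over control, grouped by role; bars are standard errors from edgeR and colours mark genes with an adjusted p under 0.05. Myh7 lies farthest to the right at 1.83, Mylk farthest to the left at -1.15, and both actin genes lie left of 0 without passing the threshold.

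Actin itself is encoded by a pair of genes in nonmuscle cells. Actb, the beta-actin gene, was at 1076, 960.4, 926 and 1032 CPM in the knockout, in order of library 1 to 4, while the controls, in the same order, were at 1102, 1136, 1053 and 908 CPM. The groups overlapped, and the difference was -0.07 on the log2 scale (SE 0.09; edgeR, adjusted p = 0.622). Actg1, the gamma-actin gene, was at 1984, 1906, 1799.9 and 1005 CPM in the knockout and at 1836, 1723, 2233 and 2061 CPM in the control. Knockout library 4 alone was far below the other 7 libraries. Its Actb value lay within the range of the others, so that per kilobase of exon Actb made up 51.1% of the reads of both genes in this library and 33.9% to 35.5% in the other knockout libraries. The difference of Actg1 was -0.23 (SE 0.19; edgeR, adjusted p = 0.414), and -0.06 without knockout library 4 (adjusted p = 0.770). Counts of both genes are uncertain, because they are much alike and have processed copies in the genome, and reads that align to several places are lost. Acta2, the smooth muscle actin gene, had 0 to 3 counts in each library.

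The promoter of Actg1 held both motifs that were searched, and is shown for that reason. They were CACGTG, the E-box bound by MYC and MAX, and the CArG box bound by SRF. The CArG box was searched as CC, then 6 letters that are each A or T, then GG. Both search patterns cover both strands, although a single CArG box need not read the same on both. The RefSeq table of promoters (build GRCm38.p6) held 50 windows for 41 of the 46 genes, and the 250 bases before each start were read. Actb, Tagln, Tln2, Pxn and Parva had no window, so their promoters were not searched. The E-box was in 6 of the 50 windows (12%) and in 6.02% of all 32851 windows, and the CArG box was in 7 of them (14%) and in 1.47% of all. The motif letters do not overlap in this sequence, which is written 5′ to 3′ and ends at the base before the start, and capitals mark a motif.
Actg1, chr11:120348496-120348745, minus strand: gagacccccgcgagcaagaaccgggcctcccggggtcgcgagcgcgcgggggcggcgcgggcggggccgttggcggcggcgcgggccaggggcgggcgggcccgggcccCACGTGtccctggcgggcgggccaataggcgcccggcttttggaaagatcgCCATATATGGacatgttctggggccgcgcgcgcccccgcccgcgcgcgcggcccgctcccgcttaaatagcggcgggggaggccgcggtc

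Crosslinkers tie filaments into networks and bundles. Flna, which encodes filamin A, a flexible crosslinker of cortical actin that binds integrins, fell 1.5-fold. It was at 99.1, 107, 117 and 125 CPM in the knockout and at 158, 154, 196 and 166 CPM in the control. Every knockout value was below every control value (-0.59, SE 0.10; edgeR, adjusted p = 0.00126). The alpha-actinin genes, whose products bundle filaments in stress fibres and adhesions, did not pass the threshold. Actn4 was at 332, 328, 326 and 378 CPM in the knockout and at 312, 317, 298 and 323 CPM in the control, without overlap but with a difference of only 0.13 (SE 0.08; edgeR, adjusted p = 0.256). Actn1 ranged from 259 to 317 CPM in the knockout and from 206 to 274 CPM in the control. Flnc, the muscle filamin gene, had 0 to 5 counts per library.

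Tropomyosins run along filaments and set which other proteins can bind. The expressed genes did not pass the threshold in either direction: Tpm1 differed by 0.15, Tpm3 by 0.22 and Tpm4 by -0.09 on the log2 scale (edgeR, adjusted p = 0.244, 0.0742 and 0.501). For Tpm3, the knockout ranged from 319 to 343 CPM, and controls 1, 2 and 4 from 269.8 to 275 CPM, while control 3 was at 327 CPM. Without control 3 the difference of Tpm3 was 0.29 and passed the threshold (edgeR, adjusted p = 0.00663). It also passed with only controls 1 and 2 (0.29; adjusted p = 0.00216; 0.15 and 0.33 with only controls 3 and 4), with DESeq2 (0.0291) and with the share of reads outside features as a term (0.0318). Tpm1 passed with only controls 3 and 4 (0.29; edgeR, adjusted p = 0.0208) and with the share of reads outside features as a term (0.16; 0.0461), but was 0.01 with only controls 1 and 2 (0.92). Tpm2, the gene of a muscle tropomyosin, had 0 to 2 counts per library.

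The calponin and transgelin genes encode related proteins that bind along filaments, and they moved in different directions. Tagln2, the transgelin gene of cells other than smooth muscle, rose 1.61-fold. It was at 651, 539.7, 556 and 568 CPM in the knockout and at 279, 318, 409 and 435 CPM in the control (0.68, SE 0.13; edgeR, adjusted p = 0.00350). All knockout libraries were above all controls, but controls 3 and 4 lay nearer to them than controls 1 and 2. The rise was 0.95 with only controls 1 and 2 and 0.45 with only controls 3 and 4, and was called in both fits. Tagln3, the transgelin gene of neurons, was at 79.5 ± 7.70 CPM in knockout libraries against 81.0 ± 10.5 CPM in controls, and Tagln, a smooth muscle marker, was at 3.05 ± 0.568 and 3.29 ± 0.579 CPM (SD, n = 4 each; neither passed the threshold). Per kilobase of exon, Tagln2 held 82.4% to 86.4% of the reads of the 3 transgelin genes in the knockout and 73.5% to 80.2% in the control.

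Cnn3, which encodes the acidic calponin of nonmuscle and neural cells, fell 1.35-fold. Its values were 77.9, 79.5, 86.9 and 95.3 CPM in the knockout and 112, 117, 137 and 91.8 CPM in the control. Control 4 lay within the knockout range, and the other controls lay above it (-0.43, SE 0.11; edgeR, adjusted p = 0.0176). The call ended without knockout library 1 (adjusted p = 0.0566) or knockout library 2 (0.0623). Cnn2, another nonmuscle calponin gene, was near the count filter, at 0.783, 0.265, 0.677 and 0.702 CPM in the knockout and 1.36, 1.68, 1.10 and 0.898 CPM in the control. Each library held only 4 to 28 reads of Cnn2. Its fall of 1.03 on the log2 scale (SE 0.34; edgeR, adjusted p = 0.0453) was not called in 10 of the 18 alternatives that tested it, including the replicate block (adjusted p = 0.0948), DESeq2 (0.0782) and only controls 3 and 4 (-0.69; 0.268), while only controls 1 and 2 gave -1.28 (0.00496). Cnn1, the smooth muscle calponin gene, had 0 to 4 counts per library.

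Myosin II is the motor of this system. Its heavy chains carry the motor, its light chains stiffen and switch it, and phosphorylation of the regulatory light chain turns it on. Of the 4 heavy chain genes listed, 3 rose and 1 did not pass the threshold. Myh14, the gene of nonmuscle myosin IIC, was at 314, 312, 301 and 314 CPM in the knockout and at 155, 155, 172 and 209.9 CPM in the control. The knockout libraries were all above the controls, by 1.79-fold in the fit (0.84, SE 0.10; edgeR, adjusted p = 0.000145). Myh9, the gene of nonmuscle myosin IIA, was at 788, 896, 816 and 902 CPM in the knockout and at 637, 623, 568 and 670.3 CPM in the control. It rose 1.36-fold without overlap (0.45, SE 0.08; edgeR, adjusted p = 0.00293). Myh10, the gene of nonmuscle myosin IIB and the form known from neurons, ranged from 459 to 530.3 CPM in the knockout and from 471 to 520.1 CPM in the control (0.04, SE 0.08; adjusted p = 0.779).

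Levels of different genes can be compared only per length, for which reads were divided by the length of all exons in GENCODE M21. On this scale Myh9 was the highest of the 3 nonmuscle genes and Myh14 the lowest in every library. Myh14 made up 21.4% ± 1.12 of the reads per kilobase in the knockout and 15.7% ± 1.77 in the control (SD, n = 4 each). The share of Myh10 was 26.5% ± 0.591 in the knockout and 34% ± 1.49 in the control, and that of Myh9 was 52.1% ± 0.760 and 50.3% ± 1.32. The ranges of the groups did not overlap for Myh10 and Myh14, and they overlapped for Myh9. No test was run on these shares, which rest on the same counts as the tests of the single genes.

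**Figure D2:**
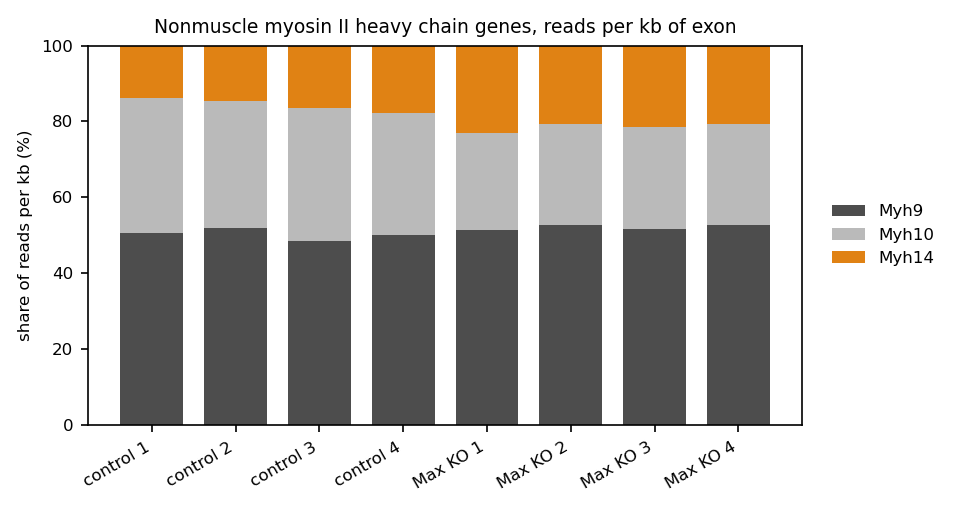
Share of reads per kilobase of exon (%) taken by Myh9, Myh10 and Myh14 in each of the 8 libraries. The Myh14 part runs from 13.8% to 17.7% in the controls and from 20.6% to 23.0% in the knockout, and the Myh10 part is smaller in every knockout library than in every control.

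Myh7, the beta myosin heavy chain gene of heart and slow muscle, had the largest change of the 40 genes. It was at 12.3, 13.1, 12.3 and 11.8 CPM in the knockout and at 2.87, 3.25, 2.93 and 4.82 CPM in the control, a 3.55-fold rise without overlap (1.83, SE 0.17; edgeR, adjusted p = 3.34e-05). Per kilobase, the knockout level of 1.96 CPM was still far below the 46.9 CPM of Myh14. Myh6, the alpha heavy chain gene that lies next to Myh7 and is much like it, was at 2.46 ± 0.804 CPM in knockout libraries against 0.934 ± 0.392 CPM in controls (SD, n = 4 each), and it rose as well (1.40, SE 0.33; edgeR, adjusted p = 0.00964). The groups of Myh6 overlapped, with knockout library 3 at 1.49 CPM and control 4 at 1.51 CPM. Reads of Myh6 and Myh7 may be split or lost between them, so both values are uncertain. Of the 10 muscle markers, Myh6 was the only 1 called. Actg2 was at 0 in all libraries, and Acta1, Actc1, Des, Lmod1 and Tnnt2 were under the count filter. The summed level of these markers was 40.8 to 54.4 CPM in knockout libraries against 37.2 to 52.2 CPM in controls, most of it from Smtn.

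Mylk encodes the kinase that phosphorylates the regulatory light chain in smooth muscle and other contractile cells, and it fell 2.22-fold. It was at 4.07, 4.31, 3.52 and 4.47 CPM in the knockout and at 11.6, 10.2, 7.91 and 6.62 CPM in the control. All controls were above all knockout libraries, with controls 1 and 2 the highest (-1.15, SE 0.18; edgeR, adjusted p = 0.00110). The difference of Mylk was -1.41 with only controls 1 and 2 and -0.83 with only controls 3 and 4, and was called in both fits. The light chain genes did not pass the threshold: Myl6, an essential light chain, differed by -0.07, and the regulatory light chains Myl12a and Myl12b by -0.03 and 0.10 (edgeR, adjusted p = 0.689, 0.872 and 0.514). Myl12a and Myl12b are near-identical neighbours, so their counts are uncertain. With only controls 1 and 2, Myl12a was lower in the knockout (-0.24; edgeR, adjusted p = 0.0102) and Myl12b did not pass the threshold (-0.06; 0.513). With only controls 3 and 4 both differences turned positive, at 0.20 for Myl12a (edgeR, adjusted p = 0.123) and 0.27 for Myl12b (0.0491). Myl9, the smooth muscle form, had 0 to 3 counts per knockout library and 10, 12, 14 and 1 counts in controls 1 to 4.

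**Figure D3:**
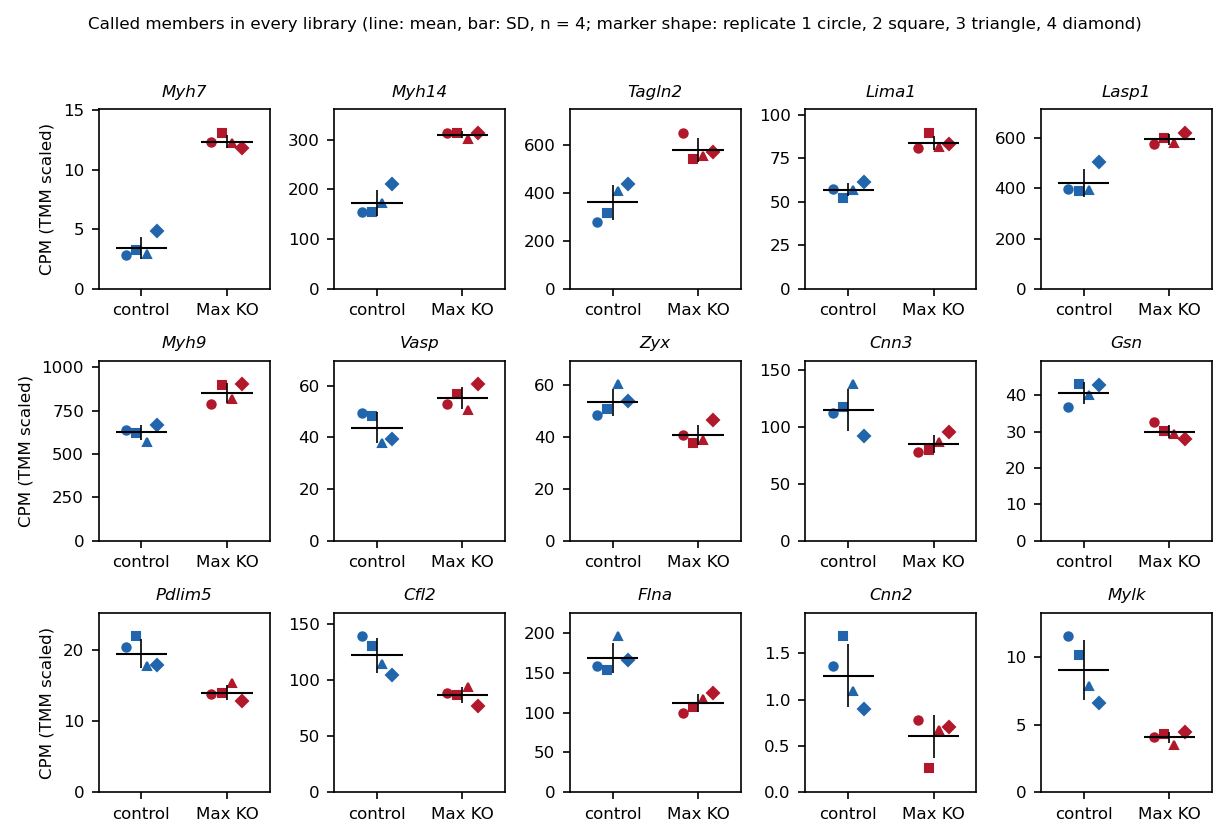
TMM-scaled CPM in every library for the 15 genes with an adjusted p under 0.05, from the largest rise (Myh7) to the largest fall (Mylk); lines are means, bars SD (n = 4), and each vertical axis starts at 0. The groups do not overlap except in Cnn3, where control 4 at 91.8 CPM lies within the knockout range.

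Of the 7 focal adhesion plaque genes, 1 fell and the other 6 missed the threshold. Zyx, whose product zyxin sits on stress fibres under tension and recruits VASP and related proteins, was at 40.8, 37.5, 38.8 and 46.4 CPM in the knockout and at 48.4, 50.8, 60.3 and 53.9 CPM in the control. The groups did not overlap (-0.38, SE 0.09; edgeR, adjusted p = 0.0126), and the call ended without knockout library 2 (adjusted p = 0.0509). Tln1, the talin gene that activates integrins, was at 188 ± 13.8 CPM in knockout libraries against 166 ± 12.7 CPM in controls, and its paralog Tln2 at 10.6 ± 1.16 and 13.0 ± 2.24 CPM (SD, n = 4 each; edgeR, adjusted p = 0.140 and 0.144). The other plaque genes Pxn (paxillin, 0.01), Ilk (integrin-linked kinase, 0.03) and Parva (its partner parvin, -0.09) differed by less than 0.1 on the log2 scale (edgeR, adjusted p = 0.969, 0.780 and 0.517).

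Vcl, which encodes vinculin, the protein that reinforces adhesions under load, split the controls. It was at 59.9, 64.3, 64.8 and 63.4 CPM in the knockout and at 83.1, 82.9, 50.1 and 66.1 CPM in controls 1 to 4. Controls 1 and 2 were above the knockout, control 3 below it and control 4 close to it. The difference was -0.16 with all controls (SE 0.14; edgeR, adjusted p = 0.434), -0.40 with only controls 1 and 2 (adjusted p = 0.000147) and 0.11 with only controls 3 and 4 (0.546). Without control 3 it was -0.29 and passed the threshold (adjusted p = 0.0269).

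LIM domain proteins bind filaments and adhesions through zinc-binding modules. Lima1, which encodes EPLIN, a protein that crosslinks and stabilises filaments, was at 81.2, 89.9, 81.7 and 83.1 CPM in the knockout and at 57.3, 52.5, 56.7 and 61.7 CPM in the control. It rose 1.47-fold, with all knockout libraries above all controls (0.56, SE 0.07; edgeR, adjusted p = 0.000367). Lasp1, whose product binds actin at the cell edge and in adhesions, was at 578, 599.8, 578 and 622 CPM in the knockout and at 399, 387, 394 and 503 CPM in the control. This was a 1.41-fold rise without overlap, with control 4 the nearest to the knockout (0.50, SE 0.09; edgeR, adjusted p = 0.00293). Pdlim5, a PDZ and LIM adaptor gene that links kinases to alpha-actinin, was at 13.9, 13.9, 15.4 and 12.9 CPM in the knockout and at 20.4, 22.0, 17.8 and 17.8 CPM in the control. It fell 1.39-fold without overlap (-0.48, SE 0.10; edgeR, adjusted p = 0.00628). Pdlim7 did not pass the threshold (-0.39; adjusted p = 0.0969; -0.48 and 0.0482 without control 1). Pdlim1 had 4 to 9 counts per knockout library and 9 to 23 per control library and lay under the filter.

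Among the 8 genes of filament turnover, 1 rose and 2 fell. Cofilins sever and take apart filaments. Cfl2, the cofilin gene known from muscle, was at 88.6, 87.2, 93.9 and 76.6 CPM in the knockout and at 139, 130.4, 114 and 105 CPM in the control. It fell 1.41-fold without overlap, and controls 1 and 2 were farthest from the knockout (-0.50, SE 0.10; edgeR, adjusted p = 0.00383). Cfl1, the main cofilin gene of other cells, was at 809, 766, 827 and 855 CPM in the knockout and at 864, 854, 849 and 680.2 CPM in the control. Control 4 was the lowest of the 8 libraries, and the difference was 0.00 (SE 0.09; edgeR, adjusted p = 0.979). Per kilobase, Cfl1 was at 325 CPM and Cfl2 at 29.4 CPM in the knockout, against 324 and 41.6 CPM in the control. Gsn, which encodes the severing and capping protein gelsolin, was at 32.6, 30.3, 29.3 and 28.1 CPM in the knockout and at 36.7, 43.1, 40.04 and 42.9 CPM in the control. It fell 1.35-fold without overlap (-0.44, SE 0.08; edgeR, adjusted p = 0.00326).

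Vasp belongs to the Ena/VASP family, which extends filaments at their growing ends. It was at 52.9, 56.7, 50.7 and 60.5 CPM in the knockout and at 49.5, 48.2, 37.9 and 39.5 CPM in the control. The groups did not overlap, and control 1 lay just below the lowest knockout library (0.33, SE 0.10; edgeR, adjusted p = 0.0362). The call ended in 8 of the 19 alternatives, among them each fit without 1 knockout library (adjusted p up to 0.104), both fits that left out control 3 (0.0531) or 4 (0.0696), and the fit on controls 1 and 2 alone (0.17; 0.0941; 0.50 and 0.00334 on controls 3 and 4 alone). Evl, of the same family, was at 81.4 ± 7.62 CPM in knockout libraries against 93.0 ± 2.46 CPM in controls (SD, n = 4 each; -0.19, adjusted p = 0.0981, edgeR). Without knockout library 4, its highest knockout value at 92.6 CPM, Evl passed the threshold (-0.26; edgeR, adjusted p = 0.0216). Upper-quartile scaling (-0.24; 0.0473) and only controls 1 and 2 (-0.21; 0.0451; -0.19 and 0.197 with only controls 3 and 4) also brought it past the threshold.

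Profilins load monomers with nucleotide and feed them to growing filaments. Pfn1, the common form, was at 691, 549, 590.1 and 631 CPM in the knockout and at 480.3, 539.6, 643 and 509 CPM in the control. The groups overlapped through control 3 (0.18, SE 0.11; edgeR, adjusted p = 0.252). Without control 3 the difference was 0.27 and passed the threshold (adjusted p = 0.0385), as it did with only controls 1 and 2 (0.27; 0.0173; 0.09 and 0.66 with only controls 3 and 4). Pfn2, the neural form, was at 105 ± 7.24 CPM in knockout libraries against 106 ± 4.04 CPM in controls, and Vil1, the gene of the microvillus protein villin, at 18.6 ± 0.445 and 18.7 ± 3.4 CPM (SD, n = 4 each). Neither passed the threshold (edgeR, adjusted p = 0.952 and 0.961).

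The promoters of 4 called genes that held a motif are shown beside that of Actg1, a pair with an E-box (Lasp1, which rose, and Cfl2, which fell) and a pair with a CArG box (Lima1, which rose, and Cnn2, which fell). In these 250-base windows, 1 of 7 genes that rose and 1 of 8 that fell held an E-box, and the same counts held a CArG box. Of the 20 genes matched among those that did not pass the threshold, 4 held an E-box and 4 a CArG box. Each motif was thus found in 1 called gene of each direction, too few to relate a motif to direction. The fall of Cnn2 was not called in 10 of the 18 alternatives that tested it. A match is a description of the letters, not of binding, and RefSeq starts need not be the starts used in these cells. Capitals mark the motif.
Lasp1, chr11:97799315-97799564, plus strand: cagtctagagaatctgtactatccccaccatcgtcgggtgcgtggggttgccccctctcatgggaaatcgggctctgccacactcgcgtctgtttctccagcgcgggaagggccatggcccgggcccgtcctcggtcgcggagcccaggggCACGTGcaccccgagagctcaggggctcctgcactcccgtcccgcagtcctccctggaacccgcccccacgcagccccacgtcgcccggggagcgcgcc
Cfl2, chr12:54862878-54863127, minus strand: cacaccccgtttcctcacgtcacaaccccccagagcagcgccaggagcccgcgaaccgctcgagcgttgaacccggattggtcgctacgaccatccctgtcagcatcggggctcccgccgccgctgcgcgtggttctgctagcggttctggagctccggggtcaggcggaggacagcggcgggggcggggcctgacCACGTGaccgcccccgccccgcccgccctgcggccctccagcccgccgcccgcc
Lima1, chr15:99820150-99820399, minus strand: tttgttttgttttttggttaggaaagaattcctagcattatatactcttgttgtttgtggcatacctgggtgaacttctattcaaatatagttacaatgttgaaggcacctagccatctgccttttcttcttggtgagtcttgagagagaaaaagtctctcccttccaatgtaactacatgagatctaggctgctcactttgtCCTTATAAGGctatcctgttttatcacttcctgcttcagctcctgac
Cnn2, chr10:79988350-79988599, plus strand: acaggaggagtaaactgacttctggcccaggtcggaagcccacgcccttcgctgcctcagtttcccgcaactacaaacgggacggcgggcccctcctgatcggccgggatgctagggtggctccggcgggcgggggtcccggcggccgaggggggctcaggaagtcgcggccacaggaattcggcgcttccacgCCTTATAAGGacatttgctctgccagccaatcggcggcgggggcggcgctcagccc

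The wider actin pathway was followed in 6 further lists with 122 genes, of which 109 were tested. Of these, 21 rose and 16 fell, or 33.9% against 23.1% of all tested genes. In the list of small GTPases, their kinases and phosphatases, the largest fall was that of Rhoa, the switch that turns on myosin II and stress fibres through the ROCK kinases. Rhoa was at 32.0, 32.0, 41.9 and 41.3 CPM in the knockout and at 152, 132, 147 and 143 CPM in the control. The groups lay far apart, and the fit gave -1.97 (SE 0.11; edgeR, adjusted p = 2.84e-06). The difference was -1.96 with only controls 1 and 2 and -1.99 with only controls 3 and 4. The annotation used in counting is not known, so an effect of transcript models or overlapping genes on the counts of Rhoa was not tested. The paralogs Rhob (0.11) and Rhoc (0.17), Rac1 (-0.02) and Cdc42 (0.18), named after their values were seen, did not pass the threshold (edgeR, adjusted p = 0.650, 0.172, 0.867 and 0.12). Of the 21 genes of this list, 3 rose and 2 fell (median 0.07), including Limk2, a kinase that inactivates cofilin (0.49), Ssh3, of the phosphatase family that activates it (0.51), and Pak3, a kinase downstream of RAC and CDC42 (-0.61).

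**Figure D4:**
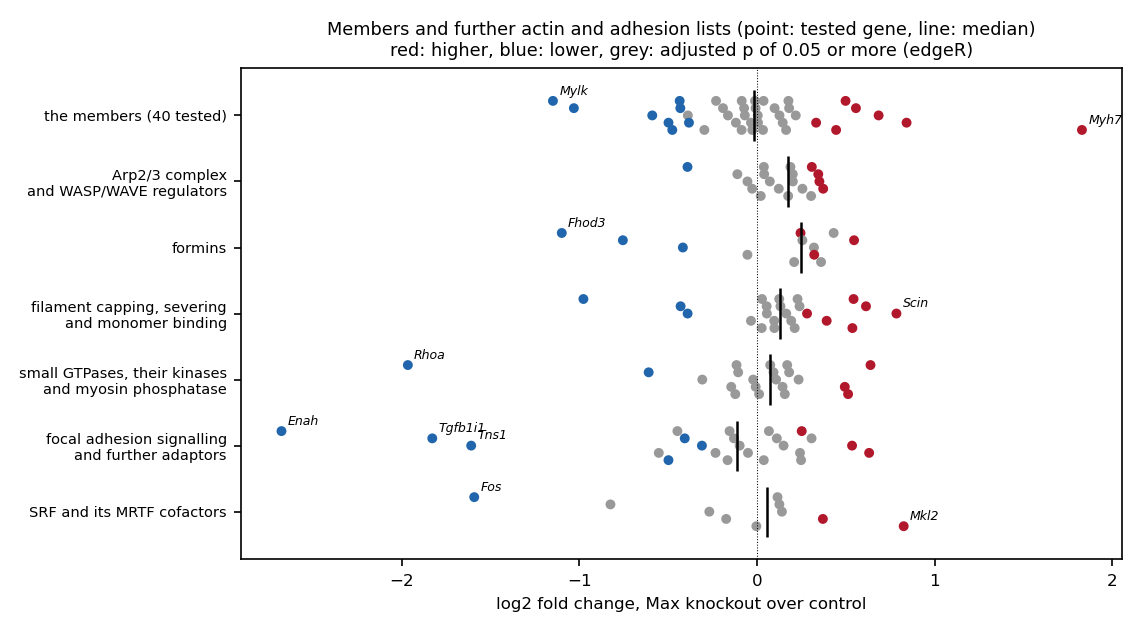
Log2 fold change (Max knockout over control) of each tested gene among the members and in the 6 further lists; vertical lines are list medians and colours mark an adjusted p under 0.05. Enah at -2.68, Rhoa at -1.97 and Tgfb1i1 at -1.83 are the lowest points, while list medians stay between -0.11 and 0.25.

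In the focal adhesion signalling list, 3 of 24 tested genes rose and 6 fell (median -0.11). Enah, the third gene of the Ena/VASP family, was at 1.36, 1.46, 1.69 and 2.04 CPM in the knockout and at 9.31, 8.42, 22.1 and 2.52 CPM in the control. All controls were above all knockout libraries, but control 4 only just (-2.68, SE 0.54; edgeR, adjusted p = 0.00522). The call ended with only controls 3 and 4 (-2.89; adjusted p = 0.0655) and held with only controls 1 and 2 (-2.45; 7.36e-09). Tgfb1i1, which encodes the paxillin relative Hic-5, fell by 1.83 on the log2 scale (edgeR, adjusted p = 0.000968). It went from 2.37 ± 0.423 CPM in the control to 0.666 ± 0.249 CPM in the knockout (SD, n = 4 each), with 5 to 59 reads per library. Its knockout level was close to that of Cnn2, near the count filter, so the size of this fall is uncertain. The tensin gene Tns1 fell by 1.61 on the log2 scale to 2.01 ± 0.267 CPM (SD, n = 4).

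Of the 19 tested genes of the Arp2/3 complex, which branches filaments, and its activators, 4 rose and 1 fell (median 0.18). The complex subunits Arpc5l (0.37) and Arpc5 (0.31) and the WAVE complex gene Cyfip1 (0.35) rose, and the WAVE gene Wasf3 fell (-0.39). The call of Arpc5 ended without any 1 of knockout libraries 1, 2 and 3 (edgeR, adjusted p up to 0.0624), and that of Wasf3 without knockout library 1 or 3 or with only controls 3 and 4 (-0.30; 0.109), against -0.49 with only controls 1 and 2 (0.000769). Formins build unbranched filaments, and of 12 tested genes 3 rose and 3 fell (median 0.25). Fhod3 (-1.10) and Fhod1 (-0.76), of the same subfamily, and Fmnl1 (-0.42) fell, and Fmn1 rose (0.55). The call of Fmn1 ended without knockout library 2, without control 2 and with only controls 3 and 4 (0.34; edgeR, adjusted p = 0.12), and the rise was 0.77 with only controls 1 and 2 (2.84e-05).

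Of 23 tested genes for capping, severing and monomer binding, 6 rose and 3 fell (median 0.13). Scin, the gelsolin relative scinderin known from secretory cells, rose from 60.9 ± 10.2 to 105 ± 8.76 CPM (SD, n = 4 each; 0.79, SE 0.11; edgeR, adjusted p = 0.000593), opposite to Gsn. Other gelsolin relatives of this list, named after their values were seen, went either way. Capg rose (0.61), Avil fell (-0.98) and Svil did not pass the threshold (0.13; edgeR, adjusted p = 0.0093, 0.0176 and 0.417). The adducin gene Add1 (0.39) and the cofilin cofactor Wdr1 (0.28) rose, and the monomer-binding twinfilin gene Twf2 fell (-0.39). The call of Wdr1 ended with only controls 3 and 4 (0.24; edgeR, adjusted p = 0.0505) and held with only controls 1 and 2 (0.31; 0.00106). The thymosins, which hold actin monomers, differed in direction, and were named after their values were seen: Tmsb4x fell (-0.43) and Tmsb10 rose (0.54; edgeR, adjusted p = 0.0217 and 0.0321). The groups overlapped for both. Tmsb4x was at 290.4 CPM in control 4 and 290.8 CPM in knockout library 3. Tmsb10 was at 181 CPM in control 3 and 179.6 CPM in knockout library 2. Neither gene was followed in the alternative fits.

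Of 10 tested genes around SRF, 2 rose and 1 fell (median 0.06). Srf was at 75.0 ± 1.70 CPM in knockout libraries against 84.5 ± 14.05 CPM in controls (SD, n = 4 each; -0.17, SE 0.11; edgeR, adjusted p = 0.271). With only controls 1 and 2 it was lower in the knockout (-0.37; adjusted p = 0.000264), and with only controls 3 and 4 the difference was 0.04 (0.767). Both MRTF genes rose. Mkl2, which encodes MRTF-B, was at 86.0, 108, 91.5 and 93.7 CPM in the knockout and at 50.4, 53.1, 50.3 and 60.1 CPM in the control, without overlap (0.83, SE 0.09; edgeR, adjusted p = 0.000110). Mkl1, which encodes MRTF-A, rose by 0.37, a call that ended in 6 of the 19 alternatives (edgeR, adjusted p up to 0.186, where only controls 3 and 4 gave 0.19; only controls 1 and 2 gave 0.56 and 4.9e-05). Fos, an early response gene with an SRF site, fell by 1.59 on the log2 scale, and the call ended in 5 alternatives, with -0.64 for only controls 3 and 4 (edgeR, adjusted p = 0.129) against -2.16 for only controls 1 and 2 (4.76e-09). Fosb did not pass the threshold (-0.82; adjusted p = 0.0993), except without control 3 (-1.03; 0.0182) and with only controls 1 and 2 (-1.22; 0.00162; -0.28 and 0.638 with only controls 3 and 4).

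Several of these genes are also high in fibroblasts and muscle, so markers of other cells are given beside them. Of 10 fibroblast markers, 3 were tested. Dcn rose (0.77), while Pdgfra (-2.37) and Fbln1 (-1.94) fell (edgeR, adjusted p = 0.0124, 0.00423 and 0.00472). Only 1 to 31 reads of Pdgfra were counted per library. Its level spanned 0.0522 to 0.339 CPM across knockout libraries, while controls spanned 0.785 to 2.27 CPM. With so few reads, how far Pdgfra fell is uncertain. Col1a1 had 1 to 8 counts, Col1a2 and Postn 0 to 3 and Col3a1 0 or 1 per library, Pdgfrb had 0 to 7, and Lum was at 0 in all. Thy1, also under the filter, had 0 or 1 counts in each knockout library. It was at 0 to 0.0669 CPM in the knockout and at 0.406 to 0.802 CPM in the controls. Thy1 was thus lower in the knockout like Pdgfra and Fbln1 and unlike Dcn. The summed level of this list was 49.9 to 65.9 CPM in knockout libraries against 34.02 to 49.1 CPM in controls, most of it from Dcn. Endothelial markers summed to at most 2.33 CPM and blood markers to at most 5.83 CPM in any library, and markers of other lung epithelium to 11.2 to 14.9 CPM, with no called gene in these 3 lists. The part of other cells in the changes of the actin genes was not tested.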

How the data were processed

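Total RNA (500 ng per library, per the labels' protocols) was sequenced from 4 Max knockout and 4 control libraries. The authors deposited raw read counts per gene symbol; bcl2fastq 1.8.4, TopHat2 2.0.12, HTSeq 0.6.1 and the build mm9 are named in the submitters' processing notes. The sources used here do not name the annotation or the strand setting, so overlapping genes cannot be told apart by strand. The counter's summary rows stayed out of library sizes; reads outside features were 18.5% to 23.4% and ambiguous reads 1.00% to 1.11% of uniquely aligned reads.

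Of 23284 symbols, filterByExpr kept 13358. Counts were scaled by TMM and compared in R 4.3.3 with edgeR 4.0.16 (glmQLFit with robust = TRUE, glmQLFTest, group as the only term, Benjamini-Hochberg adjustment over all tested genes, called under 0.05), and standard errors were derived from the F statistic. The code was tested on simulated data. CPM of genes under the filter and sums over marker lists use plain totals. For levels between genes, CPM was divided by exon length from GENCODE M21, which is of another build. No coordinates of genes are given for the same reason; promoters carry the coordinates of their own build. Alternatives were RLE and upper-quartile scaling, 2 other filters, DESeq2 1.42.0, limma-voom (limma 3.58.1), no robust estimation, the replicate block, a term for reads outside features, each library left out, and either pair of controls.

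The members and lists were chosen with earlier results of these data known. Values in every library are given for members that were called or did not overlap, and for Actb, Actg1, Myh9, Flna, Cfl1 and Pfn1. From each further list, up to 4 genes with the smallest p are named, with Srf and Max; 1 gene that this rule picks is not reported here. Rhob, Rhoc, Rac1, Cdc42, Tmsb4x, Tmsb10, Capg, Avil and Svil, and the values per library of Rhoa, Enah and Mkl2, were picked after values were seen. Brk1 was the 1 list gene without a symbol in the files.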

Additional observations from a re-analysis of the deposited data

Results flagged for a closer look

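Of 130 groups of 4 libraries looked at (65 tested genes, 40 of them members, in both groups), 9 held a library far from the other 3, where chance gives about 1 in 20. Control 4 accounted for 3 of them: it was low for Cfl1 (680.2 CPM, others 849 to 864) and high for Lasp1 (503 CPM, others 387 to 399) and Tln2 (16.3 CPM, others 11.4 to 12.2). Knockout library 4 accounted for 3: it was high for Actn4 (378 CPM, others 326 to 332) and Fmnl1 (27.9 CPM, others 23.6 to 23.7) and low for Pxn (34.5 CPM, others 38.7 to 39.5). Control 3 was high for Tpm3 (327 CPM, others 269.8 to 275), control 1 was low for Fhod3 (5.23 CPM, others 7.58 to 8.02), and knockout library 3 was low for Myh14 (301 CPM, others 312 to 314), a gap that is small beside the distance to the controls.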

How the results depend on the processing

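No called value changed sign in any of the 19 alternatives, and 11 of the 15 called members kept their call in all of them. The exceptions were Cnn2, Cnn3, Vasp and Zyx, and 8 members that were not called passed the threshold in at least 1 alternative. Leaving out 1 library gave 6 to 8 members higher and 5 to 9 lower, the lowest count of falls being without knockout library 2. Over all genes these fits gave 963 to 1846 higher and 1139 to 1929 lower, against 1457 and 1627 with all libraries. With only controls 1 and 2, 2987 genes were higher and 3081 lower, and with the share of reads outside features as a term 2256 were higher; the cause was not tested. With the replicate block, 7 members rose and 7 fell (Cnn2 lost its call), and 2532 of all genes were called against 3084. Equal replicate numbers showed no sign of pairing the libraries. Correlations of deviations ran from -0.20 to 0.0020 for equal numbers and from -0.22 to 0.20 for unequal ones. With so few libraries and no label on pairing, this cannot settle whether they were paired, and the reported fit has no block. Upper-quartile scaling moved the median of all genes from -0.0036 to -0.05. Depth limits the 6 members under the filter: 3 counts, the limit for a gene with no read, are 0.151 to 0.219 CPM, and this covers counting error only.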
